A study of Mus musculus with 4 samples.

Results

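The axon guidance ligands and receptors measured here are the semaphorins and their plexin and neuropilin receptors, the ephrins and their Eph receptors, the Slits and their Robo receptors, and the netrins with Dcc and the Unc5 receptors. They were taken by gene name from the 4 arrays: every probe named Sema, Plxn, Efna, Efnb, Epha, Ephb, Slit or Robo with its number, plus Nrp1, Nrp2, Dcc, Ntn1, Ntn4 and Unc5a to Unc5d, without the Slitrk genes. This gave 121 probes of 66 genes, 33 ligands and 33 receptors, among 41174 probes and 27672 gene names in all. Of the 66 genes, 65 had a probe bright enough to test. Dcc, the attractive netrin receptor, had 1 probe that was not well above background in any channel of any array and was left out of the test.

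The arrays carried brain RNA of male C57BL/6J mice aged 8 to 12 weeks. In the occluded mice (PMCAO, permanent middle cerebral artery occlusion, a stroke model) a nylon filament was left in the artery, and the sham operation exposed a carotid artery without placing a filament. All mice were given 0.9% saline by the intracerebroventricular route, and tissue was collected at 6 h or at 24 h after it, with 3 mice to a group; the sources used here do not say whether the RNA of a group was pooled. According to the design text the contralateral hemisphere was hybridised, while the sample labels give the tissue as brain. Each array held PMCAO and sham RNA of the same time in opposite dyes, with PMCAO in Cy5 on sample 1 and in Cy3 on sample 2 of each time, so each comparison rests on 2 arrays. The labels do not say whether samples 1 and 2 are separate RNA, so the p-values measure only array-to-array spread, and that spread may be technical. It also includes any dye effect of a gene, because the 2 arrays of a time differ in dye orientation.

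Guidance molecules steer growing axons by attraction and repulsion: a ligand on a neighbouring cell or in the matrix binds its receptor on the growth cone and changes the actin skeleton through small GTPases. In the adult brain the same proteins remain on neurons, glia and blood vessels, where they are known for roles in synapse maintenance, in vessel growth and barrier function, and in limiting axon regrowth after injury. Ephrins and Eph receptors are both held at the membrane and can signal in either direction, while class 3 semaphorins, Slits and netrins are secreted.

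Promoters of 2 ligand and receptor pairs are shown, because both partners of the first pair rose and both partners of the second fell in the results that follow. Efna1 encodes a ligand that binds the receptor encoded by Epha2, and Slit2 encodes a ligand of the receptor encoded by Robo2. Each sequence is the 250 bases before the transcription start of the gene's first listed RefSeq promoter in GRCm38.p6, read 5′ to 3′ on the gene's strand. The positions are chr3:89280952-89281201 on the minus strand for Efna1, chr4:141300971-141301220 on the plus strand for Epha2, chr5:47982905-47983154 on the plus strand for Slit2 and chr16:75447294-75447543 on the minus strand for Robo2. Capitals mark matches to any of 4 motifs on either strand.
Efna1: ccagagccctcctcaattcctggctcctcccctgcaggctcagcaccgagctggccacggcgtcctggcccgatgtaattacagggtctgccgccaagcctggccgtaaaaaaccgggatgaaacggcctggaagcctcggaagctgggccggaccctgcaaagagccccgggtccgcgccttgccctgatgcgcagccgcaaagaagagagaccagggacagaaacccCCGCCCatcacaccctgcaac
Epha2: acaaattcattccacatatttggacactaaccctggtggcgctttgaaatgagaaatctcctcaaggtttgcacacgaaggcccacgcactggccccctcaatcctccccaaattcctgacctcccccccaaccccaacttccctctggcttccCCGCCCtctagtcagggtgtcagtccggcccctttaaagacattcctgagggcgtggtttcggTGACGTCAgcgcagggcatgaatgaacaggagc
Slit2: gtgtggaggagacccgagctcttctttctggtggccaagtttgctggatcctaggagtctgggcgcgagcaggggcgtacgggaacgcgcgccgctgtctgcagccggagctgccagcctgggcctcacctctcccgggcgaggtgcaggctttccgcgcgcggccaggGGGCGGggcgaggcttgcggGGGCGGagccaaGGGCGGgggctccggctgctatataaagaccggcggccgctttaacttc
Robo2: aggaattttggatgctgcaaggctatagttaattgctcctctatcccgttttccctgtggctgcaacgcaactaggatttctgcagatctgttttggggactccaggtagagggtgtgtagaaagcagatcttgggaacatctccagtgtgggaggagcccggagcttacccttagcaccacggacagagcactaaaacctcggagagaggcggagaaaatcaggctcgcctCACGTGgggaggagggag

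The motifs searched were the AP-1 site TGACTCA, the cAMP response element TGACGTCA, the hypoxia response core ACGTG and the Sp1 site GGGCGG. The Epha2 promoter held the cAMP response element 33 bases before the start. Across 32851 RefSeq windows this motif occurred in 1.55%, and among the 72 windows of the 56 guidance genes that matched the table it occurred in 1.39%. The Robo2 promoter held a hypoxia core on both strands, which overlap in CACGTG, a motif core found in 16.6% of all windows and 16.7% of guidance gene windows. Sp1 sites were found in 70.8% of guidance gene windows and 32.7% of all windows. They were in 6 of 8 windows of the genes that rose at 24 h and in 6 of 11 windows of those that fell. The AP-1 site was in 2.78% of guidance gene windows and 4.46% of all windows. These matches describe letters in a window and not bound sites.

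On the 4 arrays, the share of spots well above background was 66.3% to 73.7% for PMCAO RNA and 67.3% to 73.6% for sham RNA. No spot of a guidance gene was saturated or marked as an outlier. All 8 neuron markers checked (among them Snap25, Syt1 and Map2) were well above background on every array, and 0 of the 8 passed the test at 24 h, with a median log2 ratio of -0.22. Markers of other cells moved between PMCAO and sham at 24 h, where 7.84% of all tested genes were higher and 4.52% lower. Higher were 6 of 7 infiltrating myeloid markers, 3 of 9 endothelial markers and 2 of 7 pericyte and meningeal markers. So were 2 of 6 astrocyte markers and 1 of 2 red blood cell markers. Lower were 1 of 9 endothelial, 3 of 6 microglial, 6 of 7 striatal neuron and 1 of 3 oligodendrocyte precursor markers. No oligodendrocyte or choroid plexus marker passed. In RNA of whole tissue, fewer cells of a type and less RNA per cell cannot be told apart.

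At 6 h after saline, the guidance genes were close to sham. Epha2, an EphA receptor of epithelial and vascular cells, was the gene that rose. The other tested guidance genes did not pass the test in either direction. Ratios are given as log2 of PMCAO over sham after normalisation within each array, and a gene passed when its adjusted p (limma, Benjamini-Hochberg over 19128 tested genes) was under 0.05. Thus 1 of 65 guidance genes was higher, where 0.816% of all tested genes were, and 0 were lower, where 0.0366% were (0.852% in either direction). Before adjustment, 8 had a limma p under 0.05 on the higher side and 0 on the lower side, where 6.16% and 2.58% of all tested genes did. The median log2 ratio of the 65 genes was 0.0064 at 6 h, against -0.0051 for all tested genes. Both arrays were above 0 for 19 guidance genes and below 0 for another 19.

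Epha2 gave log2 ratios of 0.69 and 1.05 on samples 1 and 2 at 6 h. Both lay above 0, and every PMCAO channel was brighter than every sham channel: PMCAO log2 intensities were 8.73 and 8.81 and sham intensities 8.05 and 7.76. The fitted log2 ratio was 0.87 ± 0.11 (model SE, n = 2 arrays), or 1.83-fold, with an adjusted p of 0.0432. Without sample 2 of 6 h the value was 0.69 with an adjusted p of 0.444, so the call rested on that array. It was also lost with a background offset of 0 (adjusted p = 0.0985), with every probe tested on its own (0.0545) and with median centring in place of loess.

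The 7 other genes at an unadjusted p under 0.05 at 6 h had ratios between 0.30 and 0.44, each by its brightest probe. The highest were Robo4, the Robo receptor of blood vessels, at 0.44 ± 0.08 (adjusted p = 0.128), Sema4a, a membrane semaphorin of immune and neural cells, at 0.43 ± 0.08 (adjusted p = 0.139), and Efna1 at 0.41 ± 0.10 (adjusted p = 0.244). Unc5b, a netrin receptor of vessels and neurons, stood at 0.34 ± 0.10 (adjusted p = 0.334) and Efnb1, an ephrin-B ligand, at 0.31 ± 0.08 (adjusted p = 0.279). Efna3 stood at 0.30 and Epha10 at 0.30. These are values, not calls. With the dye orientation as a block, which is also the sample number, these 7 genes and Epha2 passed, 8 higher and 0 lower, where 5.91% and 2.99% of all genes passed.

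At 24 h, 4 guidance genes were higher and 9 lower in PMCAO than in sham. Epha2, Robo4, Efna1 and Sema4a rose. Plxnc1, Sema3a, Slit3, Plxna3, Slit2, Plxnb3, Robo2, Epha6 and Sema5a fell, Slit3 by its brighter probe alone. Epha2 rose 3.23-fold, Robo4 and Efna1 rose 1.87-fold and 1.73-fold, and the genes that fell did so by between 1.29-fold for Sema5a and 1.64-fold for Plxnc1. In all, 4 of 65 guidance genes (6.15%) were higher, where 7.84% of all tested genes were, and 9 (13.8%) were lower, where 4.52% of all tested genes were. The share called in either direction was 20.0%, against a background of 12.4%. Before adjustment, 6 had a limma p under 0.05 on the higher side and 20 on the lower side, where 15.5% and 13.3% of all tested genes did.

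More guidance genes lay below 0 than above it at 24 h. Of the 52 that did not pass, 33 (63.5%) had a fitted ratio below 0, where 51.8% of all genes that did not pass did. Of all 65 guidance genes, 42 (64.6%) had a fitted ratio below 0 at 24 h, where 49.9% of all tested genes did. Both arrays were below 0 for 30 of them (46.2%, against 30.6% of all genes) and above 0 for 13 (20.0%, against 31.0%). The median log2 ratio was -0.11 on sample 1 and -0.10 on sample 2 of the guidance genes, where all genes had medians of 0.019 and -0.023. The fitted median was -0.076. A ratio of at least 2-fold was reached by 1 guidance gene, Epha2 (1.54%, against 2.17% of all tested genes). Ligands had a median of -0.0017, with 2 of 33 higher and 4 lower, and receptors a median of -0.19, with 2 of 32 higher and 5 lower. The difference between ligands and receptors was not tested.

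**Figure D1:**
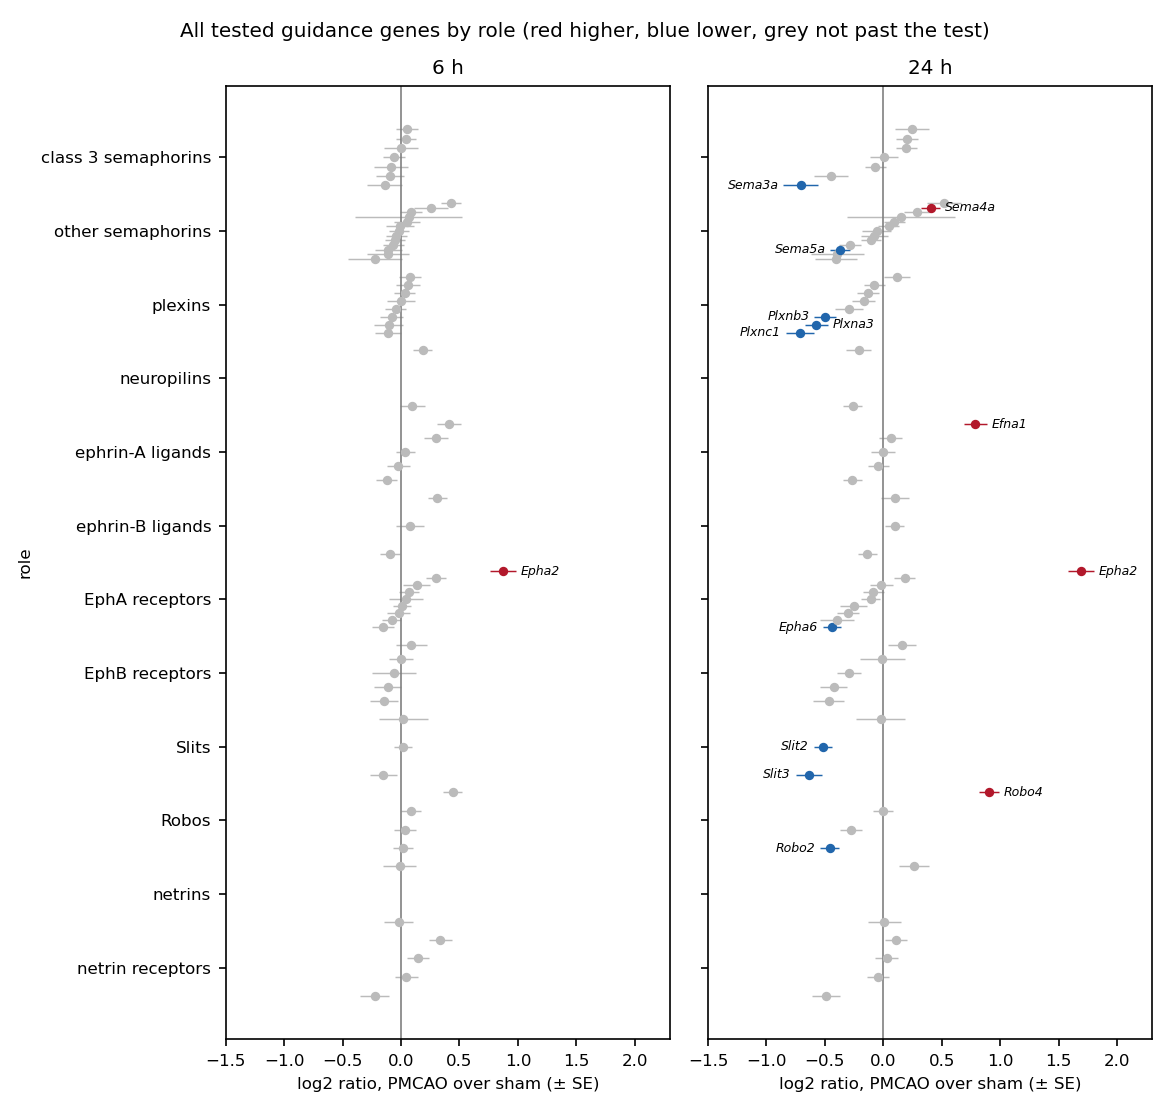
Log2 ratios of PMCAO over sham for the 65 tested guidance genes at 6 h (left) and 24 h (right), grouped by role, each point a gene and each bar ± its model SE from 2 arrays. At 6 h Epha2 alone is coloured as past the test; at 24 h 4 genes in red lie above 0 and 9 in blue lie below 0, with the blue plexins and Slits among the latter.

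Among the secreted class 3 semaphorins, which signal through neuropilins and plexins, 1 of 7 fell at 24 h and 0 rose. For this and each role count below, 4.52% of all tested genes fell and 7.84% rose at 24 h. Sema3a, a repellent of cortical and sensory axons, gave log2 ratios of 0.024 and -0.31 on the 6 h arrays and -0.46 and -0.96 on the 24 h arrays. Both 24 h arrays lay below both 6 h arrays, though they differed by about as much as the smaller ratio. The fitted ratio at 24 h was -0.71 ± 0.15 (adjusted p = 0.0393), and its dimmer passing probe gave -0.36. With the mean of its probes the ratio was -0.53 and the adjusted p 0.0583. Sema3e stood at -0.45 and did not pass (adjusted p = 0.115). The others lay between -0.068 for Sema3d and 0.25 for Sema3f.

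The other semaphorins are mostly membrane proteins, and 1 of 13 rose and 1 fell at 24 h. Sema4a gave 0.37 and 0.49 at 6 h and 0.39 and 0.42 at 24 h, above 0 on all 4 arrays and overlapping between the times. Its fitted ratio at 24 h was 0.40 ± 0.08 (adjusted p = 0.0364). Sema5a, a semaphorin with thrombospondin repeats that binds plexin-B3, gave -0.092 and -0.017 at 6 h and -0.30 and -0.44 at 24 h. The 24 h arrays lay below the 6 h arrays, the fitted ratio was -0.37 ± 0.09 (adjusted p = 0.0496), and its dimmer probe gave -0.079. Both calls were marginal: over 15 other settings, some of which share a fit, Sema4a passed in 8 and Sema5a in 3.

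Some other semaphorins had wide errors or probes that differed. Sema6b gave -0.34 and 0.47 at 6 h and -0.83 and 1.13 at 24 h, with opposite signs in opposite dye orientations at both times, so its fitted ratio of 0.15 ± 0.46 at 24 h carries little information. Sema4c had the highest ratio of the group at 24 h, 0.52 ± 0.15, from arrays at 0.23 and 0.81, and did not pass (adjusted p = 0.0803). Sema6d stood at -0.39 ± 0.23 on its brighter probe (adjusted p = 0.332). Its dimmer probe gave -0.41 and -0.59 at 24 h and passed when every probe was tested on its own, at -0.50 ± 0.09 (adjusted p = 0.0292).

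Plexins, the receptors of semaphorins, had the most genes that fell by number: 3 of 8 at 24 h, with 0 higher and a median of -0.23. Of all tested genes, 4.52% were lower and 7.84% higher. Both arrays were below 0 for 6 of the 8 and above 0 for none of the 8. Plxnc1, the receptor of Sema7a, gave -0.017 and -0.19 at 6 h and -0.51 and -0.91 at 24 h, a fitted -0.71 ± 0.12 (adjusted p = 0.0219). Plxna3, a co-receptor of class 3 semaphorins, gave 0.13 and -0.0078 at 6 h and -0.45 and -0.70 at 24 h, a fitted -0.57 ± 0.10 (adjusted p = 0.0225). Plxnb3, the receptor of Sema5a, gave 0.061 and 0.0022 at 6 h and -0.60 and -0.39 at 24 h, a fitted -0.50 ± 0.09 (adjusted p = 0.0268). In each of these 3 genes, both 24 h arrays lay below both 6 h arrays. The dimmer probe of Plxnc1 gave -0.29 and that of Plxna3 -0.13 at 24 h, and neither passed on its own. By brightest probe, Plxnb2 was the plexin with a ratio above 0 at 24 h, 0.11 ± 0.11, and its arrays gave -0.071 and 0.30. Other probes differed in sign: a dimmer probe gave 0.10 for Plxna4, 0.0074 for Plxna2 and -0.023 for Plxnb2.

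The neuropilins, co-receptors that bind class 3 semaphorins and vascular endothelial growth factor, did not pass at either time. Nrp2 gave 0.14 and 0.23 at 6 h and -0.26 and -0.27 at 24 h, above 0 on both early arrays and below 0 on both late arrays. The change between the times was -0.45 ± 0.12, with a 95% interval of -0.74 to -0.16 and an adjusted p of 0.159. Nrp1 gave 0.27 and -0.073 at 6 h and -0.20 and -0.22 at 24 h on its brightest probe. A dimmer probe of Nrp1 gave 0.77 and 0.67 at 6 h and 0.44 and 0.12 at 24 h, with an adjusted p of 0.079 at 6 h among all probes, so the probes of this gene differ in direction at 24 h.

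Among the ephrin-A ligands 1 of 5 rose at 24 h, and among the EphA receptors 1 of 9 rose and 1 fell. Efna1 gave 0.29 and 0.53 at 6 h and 0.70 and 0.88 at 24 h, a fitted 0.79 ± 0.10 (adjusted p = 0.00929). Its PMCAO log2 intensities at 24 h were 8.71 and 8.64 and its sham intensities 8.02 and 7.76, with no overlap. Epha2 gave 1.72 and 1.66 at 24 h, from PMCAO intensities of 9.87 and 9.75 against sham intensities of 8.15 and 8.09. The fitted ratio was 1.69 ± 0.11, or 3.23-fold (adjusted p = 0.000986). Both 24 h ratios of ligand and receptor lay above both 6 h ratios.

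The EphA receptor that fell was Epha6, a receptor expressed in brain neurons. It gave 0.027 and -0.015 at 6 h and -0.43 and -0.45 at 24 h, a fitted -0.44 ± 0.08 (adjusted p = 0.0251), and its dimmer probe gave -0.23. Of the 9 EphA receptors, 6 had both 24 h arrays below 0. Epha7 stood at -0.40 ± 0.14 on its brighter probe (adjusted p = 0.141), and its dimmer probe passed on its own at -0.59 ± 0.12 (adjusted p = 0.0361). Epha4, the widely expressed receptor of adult brain, stood at -0.25 ± 0.12 on its brighter probe (adjusted p = 0.226), and at 0.13 at 6 h. The dimmer Epha4 probe differed: it gave 0.61 and 0.59 at 6 h and a fitted -0.051 at 24 h. Its fitted ratio at 6 h was 0.60 ± 0.08, with a limma adjusted p of 0.0648 among all probes. Epha3 stood at -0.30 (adjusted p = 0.1003). Of the other ephrin-A ligands, Efna5 was lowest at -0.26 ± 0.08 (adjusted p = 0.105).

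No ephrin-B ligand and no EphB receptor passed at 24 h. The 3 ligands lay between -0.14 for Efnb2 and 0.098 for Efnb3. The 5 receptors had a median of -0.29. The lowest were Ephb1 at -0.47 ± 0.14 (adjusted p = 0.0875) and Ephb3 at -0.42 ± 0.12 (adjusted p = 0.0787), each below 0 on both 24 h arrays. Ephb4, the receptor of venous endothelium, stood at 0.16 ± 0.12 from arrays at -0.048 and 0.37.

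Slits are secreted repellents and Robos their receptors. At 24 h, 2 of 3 Slits were past the test on the lower side by their brightest probe and 0 on the higher side. Of all tested genes, 4.52% were lower and 7.84% higher. The Slit3 call holds for its brighter probe alone. Slit2 gave 0.018 and 0.014 at 6 h and -0.48 and -0.55 at 24 h, a fitted -0.52 ± 0.08 (adjusted p = 0.0164). Its log2 intensities at 24 h were 10.80 and 10.74 in PMCAO and 11.28 and 11.30 in sham, while the 4 channels at 6 h lay between 11.17 and 11.24. A dimmer probe of Slit2 gave -0.36 and -0.49 at 24 h and passed on its own at -0.43 ± 0.09 (adjusted p = 0.0444); its 4 other probes were too dim to test.

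Slit3 gave -0.093 and -0.21 at 6 h and -0.45 and -0.82 at 24 h on its brighter probe, a fitted -0.64 ± 0.11 (adjusted p = 0.0245). The 2 probes of Slit3 went in opposite directions. The dimmer one gave 0.37 and 0.23 at 24 h, a fitted 0.30 ± 0.09 (adjusted p = 0.102). The mean of the probes was -0.17 (adjusted p = 0.301), so the call holds for the brighter probe and not for the gene. Slit1 gave -0.46 and 0.41 at 24 h and did not pass.

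Among the Robos, 1 of 4 rose and 1 fell at 24 h. Robo4 gave 0.38 and 0.50 at 6 h and 0.90 and 0.91 at 24 h, a fitted 0.91 ± 0.08 (adjusted p = 0.00313). Its log2 intensities at 24 h were 12.67 and 12.73 in PMCAO and 11.77 and 11.82 in sham. Robo2, a neuronal Slit receptor, gave 0.039 and -0.0055 at 6 h and -0.42 and -0.50 at 24 h, a fitted -0.46 ± 0.08 (adjusted p = 0.0241). The 5 testable probes of Robo2 had fitted ratios from -0.46 to -0.16 at 24 h, all below 0, though a dimmer probe gave 0.091 and -0.51 on the 2 arrays. With the mean of its probes the ratio was -0.31 and the call was lost (adjusted p = 0.0582). The sham intensities of Robo2 also differed between the times, at 8.95 and 8.99 at 6 h and 8.66 and 8.86 at 24 h. Robo1 stood at -0.27 ± 0.09 (adjusted p = 0.125).

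**Figure D2:**
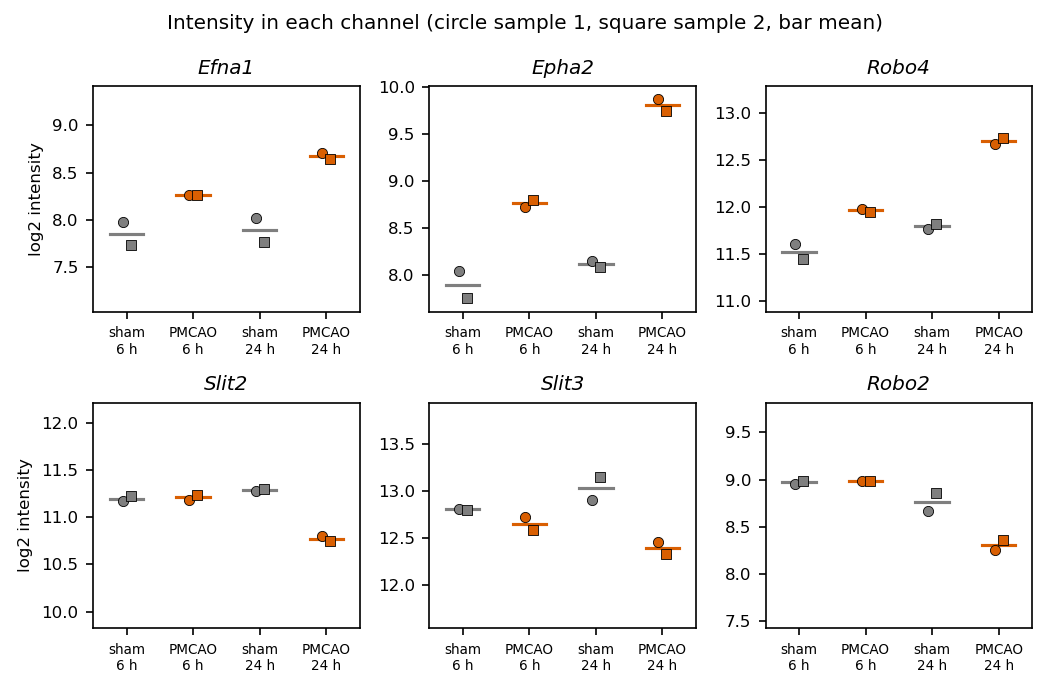
Log2 channel intensity of 6 guidance genes in sham (grey) and PMCAO (orange) at 6 h and 24 h; circles are sample 1, squares sample 2 and bars the mean of 2 arrays, and every panel spans the same range of log2 units. Each gene is drawn by its brightest probe. At 24 h the PMCAO points of Efna1, Epha2 and Robo4 lie above the sham points. Those of Slit2, Slit3 and Robo2 lie below the sham points. The dimmer Slit3 probe, not drawn, had a ratio of 0.30 at 24 h.

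The netrins and their receptors had no gene past the test at either time. Unc5c, a repulsive netrin receptor, was lowest at 24 h with -0.28 and -0.70, a fitted -0.49 ± 0.12 (adjusted p = 0.0601). Unc5b gave 0.47 and 0.21 at 6 h and 0.024 and 0.035 at 24 h, so the early values lay above the late ones. Ntn1, the classical netrin, gave 0.031 and 0.49 at 24 h, a fitted 0.26 ± 0.13 (adjusted p = 0.243). The Ntn4 probe was not well above background in PMCAO at 6 h on either array and has only a bound there.

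The 13 genes called at 24 h differed in how firmly they held. Some of the 15 other settings share a fit, so a count of them is not a count of separate checks. At 24 h, the arrays of that time alone and the fits without either 6 h array are the same fit. The authors' series table holds nearly the same ratios as the processed signals. Over 15 other settings, Epha2, Robo4, Efna1, Plxnc1, Plxna3, Plxnb3 and Slit2 passed in 14, missing only median centring in place of loess, under which 0 guidance genes and 13 genes in all passed at 24 h. Sema3a and Slit3 passed in 13, Epha6 in 11 and Robo2 in 10. Their ratios kept their sign in all 15, apart from the dimmer Slit3 probe when every probe was tested on its own, at 0.30. With either 6 h array left out, which at 24 h contribute only to the estimate of spread, 3 were higher and 6 lower (6.51% and 3.23% of all genes), and Epha6, Robo2, Sema4a and Sema5a were lost. Without sample 1 of 24 h, 12 were higher and 17 lower, where 15.3% and 14.8% of all genes were. Without sample 2 of 24 h, 4 were higher and 15 lower, where 13.0% and 7.93% of all genes were. With the dye orientation as a block, 9 were higher and 25 lower, where 20.5% and 19.3% of all genes passed.

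**Figure D3:**
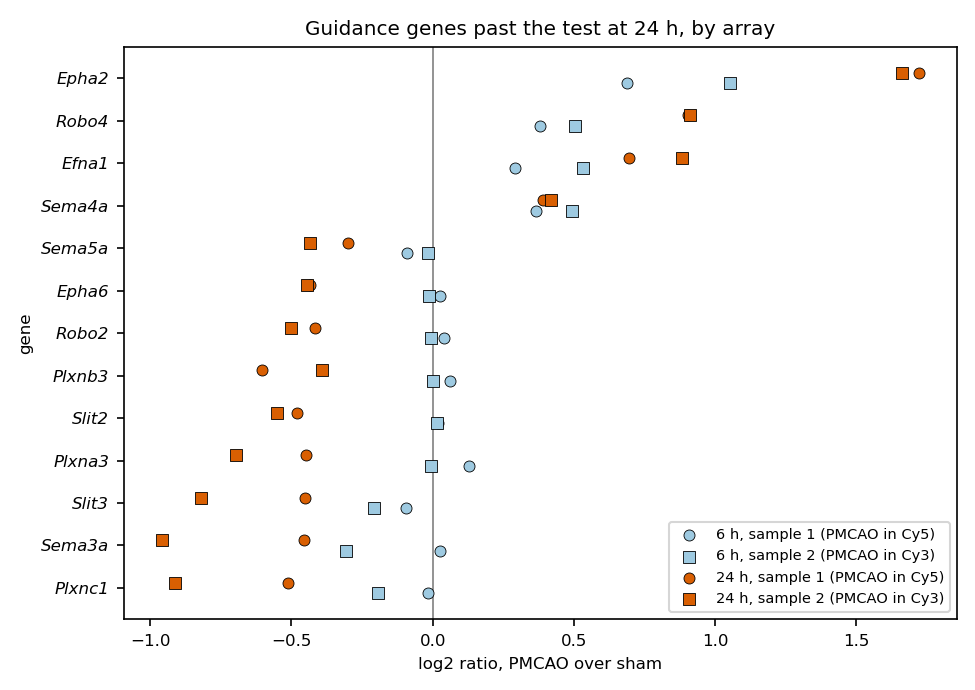
Log2 ratio of PMCAO over sham on each array for the 13 guidance genes past the test at 24 h; blue symbols are 6 h, orange symbols 24 h, circles sample 1 (PMCAO in Cy5) and squares sample 2 (PMCAO in Cy3). The 24 h symbols of the 9 genes that fell lie below 0 on both arrays, and the 24 h symbols overlap the 6 h symbols for Sema4a.

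Markers of several cell types also differed between PMCAO and sham at 24 h. Of the endothelial markers, Cdh5 (1.45), Emcn (0.91) and Pecam1 (0.93) rose, Slco1a4 fell (-0.62) and 5 of 9 did not pass. The summed linear intensity of the 9 endothelial markers was 35214 to 40125 in PMCAO and 26730 to 30302 in sham at 24 h, and all 9 were well above background on every array. At 6 h these markers had a median of -0.25, with 0 called higher and 1 lower, Slco1a4 at -1.03. Cdh5 stood at 0.92 at 6 h and did not pass (adjusted p = 0.0657). The 6 myeloid markers that rose were led by S100a9 at 5.84 and S100a8 at 5.27. At 6 h, 3 of 7 myeloid markers were higher, where 0.816% of all tested genes were. Of 2 red blood cell markers, 1 was higher at 24 h, Hba-a1 at 0.52. Among pericyte and meningeal markers Dcn (1.13) and Kcnj8 (0.96) rose, and among astrocyte markers Aldh1l1 (0.54) and Gjb6 (0.41) rose. The rest of these pericyte, meningeal and astrocyte lists did not pass. The part of any of these cell types in the higher ratios of guidance genes was not tested.

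Markers of striatal neurons had a median of -0.75 at 24 h, with a summed intensity of 11900 to 13520 in PMCAO against 23203 to 26273 in sham. The 8 general neuron markers summed to 193515 to 196501 in PMCAO and 222578 to 222895 in sham. Microglial markers had a median of -0.35. Of 3 oligodendrocyte precursor markers, 1 was lower at 6 h and at 24 h, Gpr17 at -0.68 and -0.90. The part of these cell types in the lower ratios was not tested.

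Between the times, the genes called at 24 h, Sema4a apart, had ratios farther from 0 at 24 h than at 6 h. They were picked by their 24 h test, which favours larger ratios at that time, so this cannot show a change. In the test of the 24 h minus 6 h difference, 0 of 65 guidance genes passed. Of all tested genes, 1.29% were higher and 0.298% lower in it, or 1.58% in either direction. Before adjustment, 3 had a limma p under 0.05 on the higher side (Epha2, Robo4 and Efna1) and 13 on the lower side, where 7.67% and 6.51% of all tested genes did. The difference was 0.82 ± 0.16 for Epha2 (95% interval 0.43 to 1.22, adjusted p = 0.0835) and 0.46 ± 0.12 for Robo4 (0.17 to 0.76, adjusted p = 0.152). It was -0.53 ± 0.11 for Slit2 (-0.82 to -0.25, adjusted p = 0.107) and -0.63 ± 0.14 for Plxna3 (-0.98 to -0.28, adjusted p = 0.114). Sema4a had the same ratio at both times within its error, with a difference of -0.025 and an interval of -0.32 to 0.27. These intervals are not adjusted for the number of genes.

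Both 24 h arrays lay below both 6 h arrays in 26 guidance genes (40.0%, against 20.6% of all tested genes) and above them in 10 (15.4%, against 22.3%). The median difference was -0.089 for guidance genes and 0.014 for all. With the dye orientation as a block, 3 guidance genes were higher and 14 lower in the difference, where 8.81% and 8% of all genes passed, and the 3 higher genes were again Epha2, Robo4 and Efna1. Without sample 1 of 24 h, 9 were higher and 15 lower, where 8.17% and 7.06% of all genes were. Without sample 2 of 24 h, 1 was higher and 6 lower, where 6.67% and 4.01% of all genes were.

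**Figure D4:**
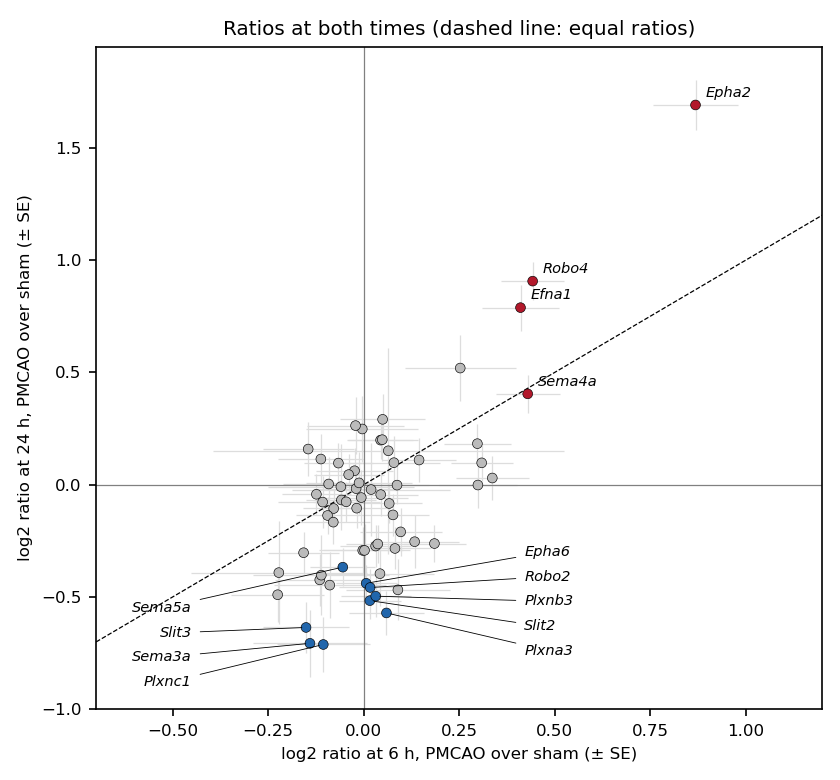
Log2 ratio at 24 h against that at 6 h for the 65 tested guidance genes, with bars of ± model SE from 2 arrays at each time; red and blue mark genes that were higher and lower at 24 h, and the dashed line marks equal ratios. Epha2, Robo4 and Efna1 lie above the line and the 9 lower genes below it, most of them near 0 at 6 h, while Sema4a lies on it. The coloured genes were picked by their 24 h test, which favours ratios farther from 0 at 24 h.

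Partners and modulators of guidance receptors, inside the cell and at its surface, were listed as 70 genes, of which 69 were tested. At 24 h, 2 rose and 8 fell, with a median of -0.077, where 7.84% and 4.52% of all tested genes rose and fell. At 6 h, 0 passed, where 0.852% of all tested genes did. The genes that rose were the small GTPases Rras at 0.55 ± 0.09 (adjusted p = 0.0207) and Rhoa at 0.43 ± 0.09 (adjusted p = 0.0335). The genes that fell were led by Ngef, an exchange factor that binds EphA receptors, at -0.63 ± 0.09 (adjusted p = 0.0129) and Chl1, an adhesion molecule of the L1 family, at -0.57 ± 0.09 (adjusted p = 0.0179). Chn1 at -0.49 and Chn2 at -0.42, GTPase activators downstream of Eph receptors, fell too. So did Mical3, of a family of plexin effectors, at -0.49, Srgap2, a Slit and Robo GTPase activator, at -0.48, Flrt2, an Unc5 ligand, at -0.47, and Kalrn, an exchange factor of dendritic spines, at -0.39.

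Probe positions, in mm7 as the array files give them, are chromosome 4 at 140707665 to 140707724 for Epha2, chromosome 9 at 37342570 to 37342629 for Robo4, chromosome 3 at 89398658 to 89398717 for Efna1, and chromosome 5 at 47631141 to 47631200 for Slit2. The Robo2 probe spans chromosome 16 at 73892904 to 73894139 and the brighter Slit3 probe lies on chromosome 11 at 35565582 to 35565641. An annotation of mm7 was not used here, so exons and untranslated regions are not given for these probes.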

How the data were processed

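Spot intensity values of both channels (mean signal, local background median, processed signal) were deposited by the authors as scanner tables of Agilent Feature Extraction 9.5.3.1, per the submitters' processing notes and the file headers. The log10 ratio of Cy5 over Cy3 in the same deposited tables was computed by that software from the processed signals, per the file headers, and was not used. The deposited series table holds a score per probe whose size matched processed Cy5 divided by processed Cy3 for 100% of probes within 0.01; its sign and any further centring are unknown, and it served as an alternative. All 4 arrays lay on the same slide.

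Mean signals were corrected by normexp (offset 50) and loess-normalised within arrays, with control spots at weight 0 and outlier spots removed, in limma 3.58.1 under R 4.3.3. All log2 ratios have PMCAO as numerator. Genes were represented by their brightest probe and tested if both arrays of any of the 4 RNA groups had it well above background. The linear model used the 4 arrays with a coefficient for each time, and their difference as a contrast (2 residual and 3.53 prior degrees of freedom), with Benjamini-Hochberg adjustment at 0.05. Channel levels followed Aquantile normalisation. Names came from RefSeq GRCm38.p6 by accession for 22951 of 41174 probes, by symbol for 6659 and by an older symbol for 3109; 8455 kept the file's name. 2 probes under older names that map to Sema3e and Nrp2 were not counted as guidance genes. The fits were tested on simulated data. Named genes were those past a test with both arrays in the same direction, plus the smallest p in each role and list. The guidance genes, roles and lists were chosen with earlier results of these data known. The number of arrays limits the precision. Plots used matplotlib 3.10.9.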

Additional observations from a re-analysis of the deposited data

How the results depend on the processing

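The 15 settings were other background corrections (deposited processed signals, offset 0), median centring, the authors' series table, no filter or a stricter filter on dim probes, the mean of probes, every probe on its own, outliers kept, the replicate block, the arrays of a time alone, and each array left out; the difference between times had 14. Calls at 24 h kept their direction in all of them, the dimmer Slit3 probe apart. That probe stood at 0.30 at 24 h when every probe was tested on its own. The shares of all genes at 24 h with an array left out are given above. The number of guidance genes higher at 6 h was 0 with median centring, offset 0 and every probe, 8 with the replicate block and with the arrays of that time alone, and 0 to 8 with an array left out. At 24 h, median centring left 0 higher and 0 lower, the mean of probes 5 lower, and leaving out an array 3 to 12 higher and 6 to 17 lower. In the difference, arrays left out gave 0 to 9 higher and 0 to 15 lower. The median at 24 h was -0.16 with processed signals, -0.19 with median centring, -0.095 with offset 0, -0.058 with the mean of probes, -0.16 with the authors' table and -0.11 to -0.076 with an array left out; that of the difference was -0.13, -0.23 and -0.14 with processed signals, median centring and the authors' table, and -0.14 to -0.089 with an array left out. Median centring moved the median of all genes to -0.094 at 24 h and -0.10 for the difference. Processed signals and the authors' table each moved the median of all genes to -0.060 at 24 h and -0.011 for the difference. With an array left out, its time rests on a lone array in a single dye orientation, whose spread is assumed to equal that of the other time, and a dye effect no longer cancels. The causes were not tested.

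The sample number is shared between the times and equals the dye orientation, and samples of the same number deviated together (r = 0.718 across genes), which says nothing of shared animals. With this replicate block, 8 guidance genes were higher at 6 h, where 5.91% of all genes were. At 24 h, 9 were higher and 25 lower, where 20.5% and 19.3% of all genes were. In the difference, 3 were higher and 14 lower, where 8.81% and 8% of all genes were. With the arrays of 6 h alone, 4.91% of all genes were higher, and with the mean of probes 4.67% were lower at 24 h.

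Some values not called in the report changed sign. At 6 h, with processed signals, Epha6 was -0.0088, Robo2 -0.023 and Slit2 -0.016. With median centring, Epha6 was -0.0023 and Robo2 -0.012. With the authors' table, Epha6 was -0.0076, Plxnb3 0, Robo2 -0.022 and Slit2 -0.015. With the mean of probes Slit3 was 0.043. With either 6 h array left out, Epha6 ran from -0.015 to 0.027, Plxna3 from -0.0078 to 0.13, Robo2 from -0.0055 to 0.039 and Sema3a from -0.31 to 0.024 at 6 h. At 24 h, with median centring, Efnb1 was -0.049, Plxnb2 -0.011 and Unc5b -0.12. Unc5b was -0.019 with processed signals and -0.015 with the authors' table. With either 24 h array left out, Ephb4 ran from -0.048 to 0.37, past the test at the latter (adjusted p = 0.0311), and Plxnb2 from -0.071 to 0.30. In the difference, with either 6 h array left out, Efnb2 ran from -0.094 to 0.0087 and Sema4a from -0.089 to 0.039.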
